A study of Homo sapiens with 4 samples.

Results

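The 9 genes described here are TBPL1, MRPL44, MYL12B, GPD2, ZNF737, STK24, INO80C, SNRPB2 and KIF3B, which were selected on the fold and p-value of the peaks assigned to their starts, among the strongest of the deposited ELF5 list. All 75 of the 115384 listed peaks with a summit within 100 kb of the 9 given positions are described, namely 9 top peaks, 1 at each gene, and 66 other peaks around them. Since fold and p chose the genes, the height of these peaks is given as a description with no test.

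ELF5 was immunoprecipitated with the antibody sc-376737 from T47D, an established line of luminal A epithelial cells from human breast that was kept in RPMI with 10% FBS and insulin and otherwise untreated. There were 3 ELF5 ChIP replicates and 1 input, and the labels' protocol text names antibodies to other factors in other lines. A single ELF5 peak list on hg19 was analysed, which has no value per replicate. No spread between replicates could therefore be given, and no group of samples was tested against another. ChIP reads report DNA bound by the factor directly or through other proteins, which cannot be told apart in a peak list. No annotation of hg19 was used, so the names of the genes come with the given positions, and the distance of a summit from a gene start was not measured. No expression data were analysed here, and whether these genes are housekeeping genes in T47D was not checked.

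ELF5 is an ETS transcription factor of luminal and alveolar mammary epithelium. ETS proteins read the letters GGAA and prefer flanks that give motifs such as CCGGAAGT or, for epithelial members of the family, AAGGAAGT. ETS motifs are common at the starts of genes that most cells use, where many ETS proteins can share a site. Most of the genes described here serve basic functions of the cell, in transcription, chromatin, splicing, mitochondria, contraction and transport.

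The promoters show how the core letters are arranged next to these genes. The stretches below are the 150 bases before the first RefSeq start of 6 genes, on GRCh38.p14, 5′ to 3′ on the strand of the gene. TBPL1 is shown because it has the strongest peak, and the others because they hold the longer motifs. Capitals mark GGAA in TBPL1, AAGGAAGT in KIF3B and CCGGAAG in the other 4, on either strand, so that CTTCCGG is the same motif read from the opposite strand. The stretches are chr6:133953074-133953223 on the plus strand for TBPL1, chr18:3261983-3262132 on the plus strand for MYL12B, and chr19:20565782-20565931 on the minus strand for ZNF737. They are chr13:98577108-98577257 on the minus strand for STK24, chr20:16729876-16730025 on the plus strand for SNRPB2 and chr20:32277501-32277650 on the plus strand for KIF3B. These positions are not comparable with the hg19 positions of the peaks, and whether a stretch lies under a peak was not measured.
TBPL1: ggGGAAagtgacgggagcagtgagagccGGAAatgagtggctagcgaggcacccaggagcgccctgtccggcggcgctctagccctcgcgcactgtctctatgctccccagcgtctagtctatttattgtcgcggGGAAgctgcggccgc
MYL12B: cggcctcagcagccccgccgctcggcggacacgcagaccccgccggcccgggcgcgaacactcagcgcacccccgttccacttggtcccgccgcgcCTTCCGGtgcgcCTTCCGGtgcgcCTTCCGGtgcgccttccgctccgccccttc
ZNF737: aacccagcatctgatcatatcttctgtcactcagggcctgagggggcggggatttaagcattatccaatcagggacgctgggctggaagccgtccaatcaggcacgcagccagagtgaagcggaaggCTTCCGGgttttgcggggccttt
STK24: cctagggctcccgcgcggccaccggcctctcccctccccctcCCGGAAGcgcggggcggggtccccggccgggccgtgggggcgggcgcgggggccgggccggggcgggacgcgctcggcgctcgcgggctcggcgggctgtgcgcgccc
SNRPB2: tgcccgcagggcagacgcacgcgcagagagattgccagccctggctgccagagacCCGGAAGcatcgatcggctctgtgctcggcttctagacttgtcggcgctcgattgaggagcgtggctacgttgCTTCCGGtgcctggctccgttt
KIF3B: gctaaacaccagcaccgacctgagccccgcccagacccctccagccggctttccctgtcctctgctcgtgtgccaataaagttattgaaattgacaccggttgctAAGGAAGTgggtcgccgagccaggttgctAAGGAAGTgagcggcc

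The top peak of each gene had between 2.11 and 8.15 times the fold of the strongest other peak within 100 kb, and between 1.66 and 8.15 times that of the strongest other peak within 200 kb. The fold is the authors' deposited enrichment of a peak over its local background. The 9 top peaks ran from 48.2 at KIF3B to 72.5 at TBPL1, and the strongest other peaks from 8.12 near INO80C to 24.9 near ZNF737. The genes were chosen for high top peaks, so these ratios are a description. The same ratio was not computed for the 100 strongest other peaks by fold, of which 4 had no other peak within 100 kb. For the rest of the 100, the folds of the strongest neighbour spanned a range that enclosed that of the 9 genes. The ratios therefore do not set the 9 genes apart from other high peaks. The 95% counting intervals given below cover counting error of the pileup only and hold the background fixed.

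**Figure D1:**
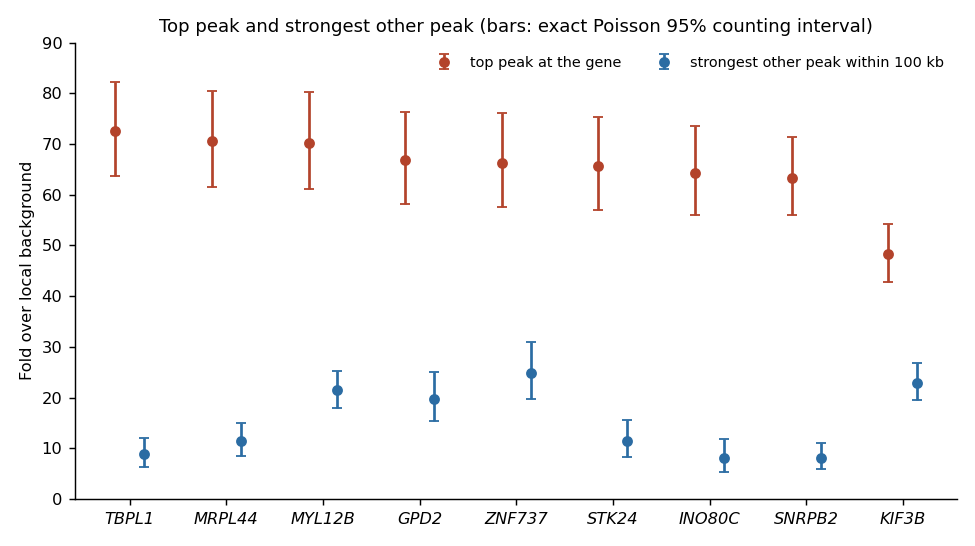
Fold over local background (linear axis) of the top peak at each gene and of the strongest other peak within 100 kb, with exact Poisson 95% counting intervals. The top peaks, for which the genes were chosen, lie between 48.2 and 72.5 and the strongest other peaks between 8.12 and 24.9.

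The fold rests on the fragment pileup at the summit and on the local background, which were both inferred from the deposited fold and p. Pileups are printed here as whole fragments before scaling by 0.910, whereas backgrounds are in scaled fragments. A pseudocount of 1 is also added to each, so the fold is not the plain ratio of the printed values. Pileups were high at all 9 genes, from 202 fragments at STK24 to 281 at KIF3B, against a median of 16 over the whole list. Backgrounds ran from 1.81 to 4.32 scaled fragments. At MRPL44, MYL12B, ZNF737 and STK24 the background was 1.81, the lowest in the list, so the order of these 4 by fold is their order by pileup. That lowest background is a floor shared by 9866 peaks, 8.55% of the list, and by 22 of the 100 strongest other peaks by fold. It therefore does not mark these 4 genes as unusually low.

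**Figure D2:**
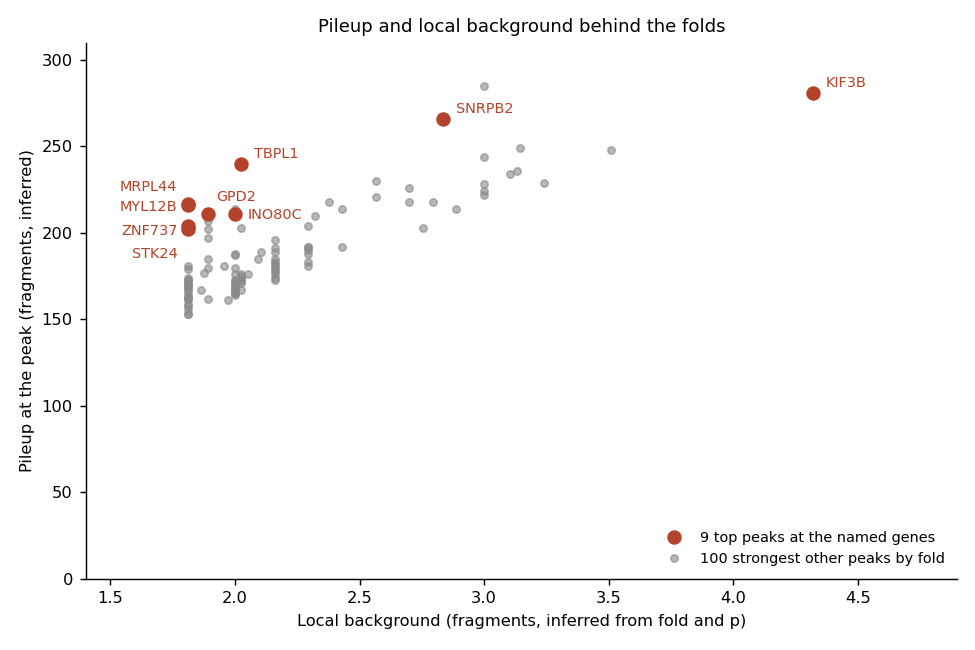
Inferred pileup at the peak (whole fragments before scaling by 0.910) against inferred local background (scaled fragments) for the 9 top peaks and for the 100 strongest other peaks by fold. KIF3B and SNRPB2 have the highest pileups of the 9, 281 and 266, over backgrounds of 4.32 and 2.84. The lowest background, 1.81, is a shared floor at which 4 genes lie.

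The order of the 9 genes changed with the measure. By fold TBPL1 was the strongest peak of the whole list, 7 of the 9 were among the 10 strongest, SNRPB2 was the 13th and KIF3B ranked 125. By p SNRPB2 ranked 2, TBPL1 3 and KIF3B 5, and the other 6 ranked from 12 to 44. By pileup KIF3B ranked 20, SNRPB2 31 and TBPL1 79, and the other 6 ranked from 224 to 413. KIF3B thus had the lowest fold and the highest pileup of the 9.

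Transcription, chromatin and splicing were represented by TBPL1, INO80C, SNRPB2 and ZNF737. TBPL1 encodes a relative of the TATA-binding protein, known in mice for its role in sperm formation. Its top peak covered 134274006 to 134274659 on chromosome 6, 654 bp, with 240 fragments over a background of 2.03 and a fold of 72.5 (95% counting interval 63.7 to 82.2). A second peak of fold 8.89 (6.37 to 12.1) ended 245 bp before it, at 134273760, and was the strongest other peak of the window. The remaining 4 peaks had folds from 3.11 to 4.57, and the nearest of them lay 29.0 kb away. The TBPL1 window thus held a pair of adjoining peaks and otherwise only low ones.

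INO80C encodes a subunit of the INO80 chromatin remodelling complex. The INO80C top peak lay at 33077474 to 33078143 on chromosome 18, with 211 fragments over a background of 2.0 and a fold of 64.3 (56.0 to 73.6). None of the 9 other peaks was strong, a word used here for the highest 10% of folds in the list, which begin at 12.0. On the higher-coordinate side 5 of them, the nearest 10.2 kb from the summit, had folds from 2.96 to 7.07. A group of 3 peaks between 83.1 and 84.3 kb away had folds of 4.88, 8.12 and 8.12, and the only peak on the lower-coordinate side, 38.9 kb away, had 4.88. A peak of fold 36.3 lay outside the window, 154 kb from the given position, so the ratio of the INO80C top peak to the strongest other peak was 7.92 within 100 kb and 1.77 within 200 kb.

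SNRPB2 encodes a protein of the splicing particle that recognises the branch point. Its top peak covered 16710248 to 16711010 on chromosome 20, with 266 fragments over a background of 2.84 and a fold of 63.4 (56.0 to 71.4). The 5 other peaks had folds from 3.34 to 8.13. The strongest of these lay 30.7 kb away, and a peak of fold 4.46 followed it 31.0 kb from the summit. The nearest peak was 17.7 kb away, so no other peak was listed within 10 kb of the SNRPB2 summit. A peak of fold 31.7 lay outside the window, 156 kb from the given position, and the ratio of the SNRPB2 top peak to the strongest other peak was 7.79 within 100 kb and 2.0 within 200 kb.

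ZNF737 belongs to a family of zinc finger genes that lie together on chromosome 19. The peak at its position spanned 20747922 to 20748827, with 204 fragments over a background of 1.81 and a fold of 66.3 (57.6 to 76.0). This was the emptiest of the 9 windows. Only 2 other peaks were listed, 94.7 and 95.8 kb away on the higher-coordinate side, at folds of 7.15 and 24.9 (19.8 to 31.0). The second of these, from 20843925 to 20844613, was the strongest other peak in any of the 9 windows. In the RefSeq order on GRCh38, ZNF626 follows ZNF737, and which gene the distant peak lies at was not analysed here.

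Mitochondrial and metabolic functions were represented by MRPL44 and GPD2, both on chromosome 2. MRPL44 encodes a protein of the large subunit of the mitochondrial ribosome. The MRPL44 top peak, from 224821875 to 224822538, was the second strongest of the list, with 217 fragments over a background of 1.81 and a fold of 70.5 (61.5 to 80.5). On the lower-coordinate side a group of 3 peaks lay between 12.1 and 13.0 kb away, and the nearest and strongest of them had a fold of 11.4 (8.50 to 15.0). The other 5 peaks had folds from 2.98 to 4.82, and none of the 8 was strong.

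GPD2 encodes the mitochondrial glycerol-3-phosphate dehydrogenase of the glycerol phosphate shuttle. Its top peak covered 157292028 to 157293101, with 211 fragments over a background of 1.89 and a fold of 66.8 (58.1 to 76.4). A minimum-width peak of 135 bp with a fold of 3.34 began 274 bp after it. The strongest other peak lay 94.6 kb away, from 157197988 to 157199408, with a fold of 19.7 (15.3 to 25.1). A peak of fold 40.3 (33.7 to 47.9), from 157190420 to 157191547, fell just outside the window, 101 kb from the given position, whereas the outermost peak inside, 99.8 kb away, had a fold of 3.97. The top peak at GPD2 thus had 3.38 times the fold of the strongest other peak within 100 kb and 1.66 times that within 200 kb. NR4A2 precedes GPD2 in the RefSeq order on GRCh38, and whether these distant peaks lie at it was not analysed here.

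The cytoskeleton, signalling and transport were represented by MYL12B, STK24 and KIF3B. MYL12B encodes a regulatory light chain of non-muscle myosin. Its top peak covered 3261628 to 3262714 on chromosome 18, with 216 fragments over a background of 1.81 and a fold of 70.2 (61.2 to 80.2). A wide peak of 1150 bp lay 14.1 kb away on the lower-coordinate side, with 140 fragments and a fold of 21.4 (18.0 to 25.2), beside a narrower one of fold 10.8. This was the closest strong neighbour of any of the 9 top peaks. MYL12A, a closely related light chain gene, precedes MYL12B in the RefSeq order on GRCh38.

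STK24 encodes a kinase of the germinal centre kinase family. Its top peak was the broadest of the 9, 2089 bp from 99228341 to 99230429 on chromosome 13, with 202 fragments over a background of 1.81 and a fold of 65.7 (57.0 to 75.4). The STK24 window held the most peaks, with 13 besides the top peak, yet none of them was strong. Their highest folds were 11.4 and 11.3, at 92.3 and 69.8 kb, and the nearest peak, 5.14 kb from the summit, had a fold of 4.64. STK24 therefore combined the largest number of neighbours with folds that all stayed below 12.0.

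KIF3B encodes a motor subunit of a kinesin that carries cargo in cilia and elsewhere along microtubules. The KIF3B top peak lay at 30865178 to 30865905 on chromosome 20, with 281 fragments over a background of 4.32 and a fold of 48.2 (42.8 to 54.2). Of the 12 other peaks 2 were strong, 69.8 kb away at a fold of 12.3 and 80.6 kb away at 22.9 (19.4 to 26.8). The second was 1705 bp wide and had 153 fragments over a background of 5.13. The ratio of the top peak to the strongest other peak at KIF3B, 2.11, was the smallest of the 9 within 100 kb, while within 200 kb those of GPD2, INO80C and SNRPB2 were smaller. The KIF3B window also held 3 of the 4 peaks in all windows with the authors' q at 0.05 or more. POFUT1 precedes KIF3B and ASXL1 follows it in the RefSeq order on GRCh38.

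**Figure D3:**
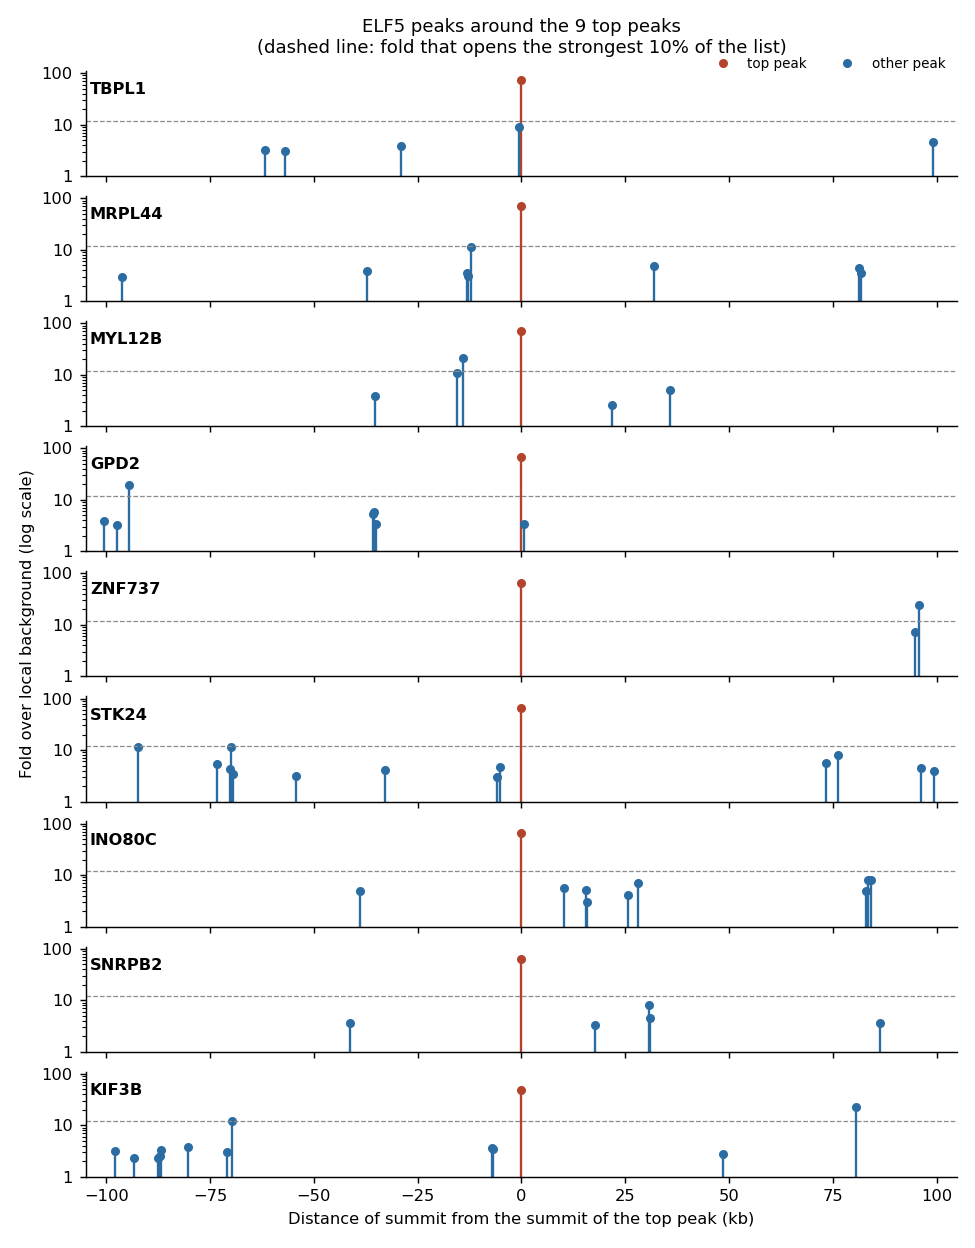
Fold over local background (logarithmic axis) of every listed ELF5 peak within 100 kb of the 9 positions, by distance of its summit from the summit of the top peak (kb). The top peaks stand at distance 0, and 5 of the 66 other peaks lie above the dashed line at a fold of 12.0.

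Apart from the top peaks the windows looked like the rest of the list in peak height. The 66 other peaks had a median fold of 4.13, a median pileup of 17 and a median width of 215.5 bp, against 3.66, 16 and 215 bp over the whole list. Strong peaks made up 5 of these 66, 7.58% (exact binomial 95% interval 2.51% to 16.8%), against 10.0% of the whole list. With the top peaks, which the choice of genes put there, they made up 14 of 75, 18.7%. The authors' q was under 0.05 at 62 of the 66, 93.9%, against 87.5% of the whole list. No test was made on these shares, and neither sets the windows apart from the list.

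The neighbours were spread over the windows rather than gathered at the top peaks. Of the 66, 6 lay within 10 kb of a top summit, 26 between 10 and 50 kb and 34 farther away. These distance ranges differ in length, the nearest being the shortest, so the counts do not show a shortage near the top peaks. The same split was not made for other peaks of the list. The nearest other peak was over 10 kb away, edge to edge, at 4 of the 9 top peaks, MRPL44, MYL12B, ZNF737 and SNRPB2, against 28 of the 100 strongest other peaks by fold and 18.2% of the whole list. The windows held between 3 and 14 peaks, with a median of 8.

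The 9 top peaks were set beside the 100 strongest other peaks by fold, which are also high but lower at the median. The median fold of the 100 was 53.0 against 66.3 for the 9, and their median pileup 179.5 against 216. Within 100 kb of its summit a top peak had a median of 6 other peaks (2 to 13), against 9 for the 100 strongest others. The median was 15 for strong peaks and 22 for all peaks. These medians are taken over peaks, so crowded regions weigh more in them, and peaks per stretch of genome were not compared. The strongest neighbour had a median fold of 11.4 (8.12 to 24.9) at the 9 genes, against 22.9 for the 96 of the 100 strongest others that had a neighbour, since 4 had none. No strong peak lay within 100 kb at 5 of the 9 top peaks, against 27 of the 100 and 28.0% of the whole list. The count of 5 depends on the cut at 12.0. It includes MRPL44 and STK24, whose strongest neighbours had a fold of 11.4 with counting intervals up to 15.0 and 15.5. The interval of the strongest neighbour at TBPL1 also reached 12.1. The median distance to the nearest edge of another peak was 9891 bp at the 9 genes, against 948 bp for the 100. Top peaks had a median width of 763 bp, against 894 bp. The ranges of the 9 lay within those of the 100 for neighbours, strongest neighbour, distance and width. The folds of the 9, from 48.2 to 72.5, ran beyond those of the 100, which spanned 49.4 to 65.5. No test was made because the genes were chosen with these results known.

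**Figure D4:**
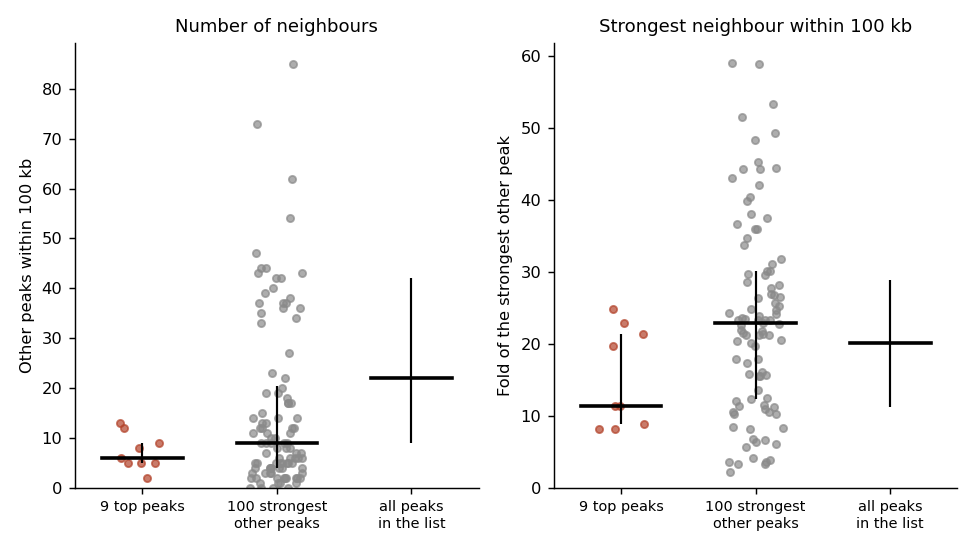
Number of other peaks within 100 kb (left) and fold of the strongest of them (right) for the 9 top peaks, the 100 strongest other peaks and all peaks, where the right panel leaves out 4 of the 100 and 1926 of all peaks that had no neighbour. Points are single peaks, horizontal lines are medians (6, 9 and 22 on the left, 11.4, 22.9 and 20.2 on the right) and vertical lines the interquartile range.

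All 9 genes were matched to the RefSeq promoter table, which lists 13 starts for them. The full motif CCGGAAGT, searched on both strands in the 250 bases before each start, was found at none of the 9, against 5.82% of 15843 protein-coding genes. The exact binomial 95% upper bound for 0 of 9 is 33.6%, so 9 genes cannot tell this share from that of all genes. One letter shorter, CCGGAAG, which every CCGGAAGT contains, was found at 4 of the 9, MYL12B, ZNF737, STK24 and SNRPB2, against 14.0% of protein-coding genes. The exact binomial 95% interval for 4 of 9 runs from 13.7% to 78.8% and includes the 14.0%. Counted per promoter, CCGGAAG was in 10.7% and CCGGAAGT in 4.41% of the 22199 protein-coding promoters of this length. The core GGAA was found at all 9 genes, against 94.2% of protein-coding genes, a share near enough to all that it sets nothing apart.

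The copies were arranged differently from gene to gene. The MYL12B promoter held CCGGAAG in 3 copies in a row, on the opposite strand, beginning 54, 42 and 30 bases before the first listed start. Of the 15843 protein-coding genes 35, or 0.221%, had at least 3 copies before a start. The SNRPB2 promoter held 2 copies on opposite strands, 95 and 22 bases before the start, and 2.04% of genes had at least 2. Both cuts equal the number of copies seen at the gene itself, so these shares are a description. ZNF737 and STK24 held 1 copy each, 23 and 108 bases before the start.

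KIF3B lacked CCGGAAG and held AAGGAAGT in 2 copies on the same strand, 45 and 16 bases before the start. This motif was searched after the promoters had been read, so the choice of letters was not independent of the result. At least 1 copy was present at 2.11% of protein-coding genes and at least 2 copies at 8 of the 15843, 0.0505%. Among the 9 genes only KIF3B held it. The shorter GGAAGT, contained in both AAGGAAGT and CCGGAAGT, was found at MRPL44, GPD2, INO80C and KIF3B, against 25.9% of protein-coding genes. At GPD2 it lay before the second listed start only. TBPL1, at the strongest peak of the list, held none of these longer motifs. Its 250 bases held GGAA 6 times, fewer than the 7 at MRPL44 and at SNRPB2, and the first starts of the 9 genes had a median of 5, against 3 over protein-coding genes.

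The composition of the 9 promoters was close to that of other genes. At the first listed start the GC content ran from 54.8% at ZNF737 to 87.6% at STK24, with a median of 63.6%, against 62.4% for protein-coding genes. The ratio of observed to expected CpG had a median of 0.827, against 0.737. Over all listed starts, the letters GGGCGG, read by SP proteins, were found at 8 of the 9 genes, all but SNRPB2, against 62.1% of protein-coding genes. CCAAT was found at 4 of the 9, against 40.2%. At the first listed starts alone GGGCGG was found at 7 of the 9 genes and CCAAT at 3. The shares of all genes at first starts alone were not computed. Counted per promoter, GGGCGG was in 53.7% and CCAAT in 32.7% of protein-coding promoters. The TATA letters TATAAA were found at none, against 11.9%.

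A list of 103 names of partner genes, such as other mitochondrial ribosomal proteins, INO80 subunits, splicing proteins and kinesin subunits, was searched in the same way, and 82 had a promoter entry. CCGGAAGT was found at 13 of these 82, 15.9%, and CCGGAAG at 31, 37.8%, against 5.82% and 14.0% of protein-coding genes. Among 10 splicing protein genes CCGGAAG was found at 6, among them SNRPB, which encodes a core protein of the splicing particles, and among 41 mitochondrial ribosomal genes at 15. It was found at 3 of 13 INO80 complex genes, 4 of 7 zinc finger genes and 2 of 3 kinases related to STK24. Neither of the 2 TBP family genes nor the 1 glycerol phosphate gene held it. None of the 4 other kinesin genes in the list, KIF3A, KIF3C, KIFAP3 and KIF17, held CCGGAAG or AAGGAAGT. With 14.0% and 2.11% of protein-coding genes holding these letters, 4 genes are too few to set apart. MYL12A was the only partner gene with AAGGAAGT, 1.22% of the 82, and it held CCGGAAG too. Peaks at these partner genes were not located, since that needs an annotation of hg19.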

How the data were processed

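The labels describe 3 ELF5 ChIP samples and 1 input sample of T47D, and do not say whether the ChIP replicates came from separate cultures. Both the file header and the submitters' processing notes give hg19 as the build of the 1 peak list. Its track line mentions IDR and 1-3, which may stand for replicates 1 to 3 or for 1 and 3. Not given in the sources used here are the aligner, peak caller, threshold, use of the input and depth per sample.

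The deposited signal column names no unit, and its values act as a ratio, the fold of ChIP over the background nearby. The deposited −log10 p and q-value of each peak were used as given, and the authors' score is the whole part of 10 times the −log10 p. Pileup and background were inferred with a Poisson tail, a pseudocount of 1 and whole pileups scaled by 0.910, which returned the −log10 p of 115383 of 115384 peaks within 0.001. Exact Poisson and binomial 95% intervals cover counting error only. The recovery was also run on data simulated with the same tail, pseudocount and scaled pileups, which checks the calculation only. That run cannot show that the deposited values were made in this way.

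The top peak of a gene is the highest fold within 5 kb of its position, and windows extend 100 kb to each side. Named genes were the 9 members. Members, lists and alternatives were chosen with earlier results of these data known. Promoter letters and gene order came from RefSeq on GRCh38.p14, in protein-coding genes. The alternatives covered other windows, thresholds, rankings and motifs. Scripts ran in Python 3.11.15 with scipy 1.17.1, numpy 2.4.6, matplotlib 3.10.9 and pandas 2.3.3.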

Additional observations from a re-analysis of the deposited data

How the results depend on the processing

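The windows held 75 peaks, 41 with a window of 50 kb and 150 with 200 kb. Fewer peaks remained by construction in the highest 50% of folds, 51, and with the authors' q under 0.05, 71. The share of strong peaks, 18.7%, was 33.3% when the highest 20% of folds counted as strong. By construction that wider cut also passes more of the whole list. With the highest 5% of folds the share was 17.3%, against 5.01% of the whole list. It was 7.58% without the 9 top peaks, and it lay between 15.3% and 24.4% in the other alternatives, which kept the highest 10%. All of these shares except the 7.58% include the 9 top peaks, which the choice of genes put there. The median fold of the strongest other peak, 11.4, was 22.9 within 200 kb, where single peaks at GPD2, STK24, INO80C and SNRPB2 reached 40.3, 16.0, 36.3 and 31.7. Within 50 kb it was 7.60 over 8 genes, since ZNF737 had no other peak there. The median rank of the top peaks was 5 by fold, 14 by p and 231 by pileup. The share of the 9 genes with an ETS motif, 0% for CCGGAAGT against 5.82% of protein-coding genes, was 44.4% for CCGGAAG against 14.0%. It was 100% for GGAA against 94.2% and 44.4% for GGAAGT against 25.9%. For AAGGAAGT it was 11.1% against 2.11%, and GGAAGT and AAGGAAGT were added after seeing the data. Shorter letters are thus found at more genes of any kind. With overlapping peaks merged every value stayed as it was, there being no overlap. Replicates could not be left out in turn, and this alternative was left unrun for want of values. No paired analysis was possible because peaks carry no separate replicate values.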

Other observations

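Of the 10 strongest peaks by fold 3 lay at none of the 9 genes. The peak from 45244981 to 45245749 on chromosome 19 had a fold of 65.5 and 47 other peaks within 100 kb, and the strongest of these had a fold of 42.1. The peak from 141071412 to 141073644 on chromosome 4 had a fold of 65.2 and 10 other peaks, the strongest at 21.2. The peak from 33220817 to 33221786 on chromosome 9 had a fold of 65.1 and 19 other peaks, the strongest at 26.6. By comparison, the top peaks at the 9 genes had at most 13 others within 100 kb of the summit, with folds up to 24.9. The chromosome 4 peak lies within these limits. Among the 100 strongest other peaks by fold the median was 9 others, with an interquartile range of 4 to 20.5. Genes at these 3 peaks were not analysed here.

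Strong peaks between 100 and 200 kb from the given positions were listed for 6 of the 9 genes. They were 1 of 8 peaks there at MYL12B, 1 of 5 at GPD2, 1 of 15 at STK24 and 1 of 30 at KIF3B. INO80C had 2 of 3 and SNRPB2 3 of 9, whereas TBPL1 had 0 of 3 and MRPL44 0 of 2. Strong peaks make up 10.0% of the whole list, and how many listed peaks have one at that distance was not counted. The strongest at INO80C and SNRPB2 were the highest after the one at GPD2. The INO80C one, 154 kb away, had a fold of 36.3 (95% counting interval 29.9 to 43.6), and the SNRPB2 one, 156 kb away, 31.7 (26.5 to 37.7). At ZNF737 no peak was listed at that distance.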
